A study of Danio rerio with 24 samples.

Results

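The 10 genes described here act in the synthesis, transport, binding and clearance of retinoic acid or its precursors in the zebrafish embryo. These genes are aldh1a2, aldh1a3, rbp4, dhrs3a, dhrs3b, crabp1b, crabp2a, cyp26a1, cyp26b1 and cyp26c1. They were taken by symbol from a main table of raw counts per Ensembl gene that holds 26347 genes, and all 10 were present and passed the filter on low counts. The study sequenced the RNA of whole zebrafish embryos of 3 lines, each with and without TCDD and with 4 replicates numbered in the labels. Of the 24 samples, 16 libraries in 4 groups were analysed: slincRosu3 embryos with TCDD, slincRosu3 control embryos, wild-type (WT) embryos with TCDD, and WT control embryos. TCDD (2,3,7,8-tetrachlorodibenzo-p-dioxin) was given at 1 ng/mL over the window of 6 to 48 hours post fertilization (hpf), and all embryos were collected at 48 hpf. The authors' table header calls the WT control DMSO. Embryos of slincRosu3 have slincR, a long noncoding RNA named after its neighbour sox9b, mutated by CRISPR-Cas9. The sources used here give neither the lesion nor the number of founders or of embryos per library, and slincR itself was not found under that name in the count table, so the line labels could not be checked by its RNA. The 8 samples of the third line, BigD, were not analysed here.

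Retinoic acid is a small signalling molecule made from vitamin A in steps. Retinol is carried in the circulation by Rbp4, oxidised to retinaldehyde, and then oxidised to retinoic acid by Aldh1a enzymes, while Dhrs3 enzymes return retinaldehyde to retinol. Inside cells, Crabp proteins bind retinoic acid, nuclear receptors of the RAR and RXR families carry its signal to DNA, and Cyp26 enzymes hydroxylate it for removal. Sources and sinks of this kind pattern the hindbrain, somites, heart, pectoral fins and eye of the zebrafish embryo, and several of the genes are themselves known to respond to retinoic acid. TCDD activates the aryl hydrocarbon receptor, and dioxins are long known to disturb vitamin A stores in vertebrates.

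Levels are given as CPM, a gene's count relative to the total of its library, scaled between libraries by edgeR's TMM method. Total counts per library ran from 17275522 to 20100736, and counts of the 10 genes in a library from 74 to 8311. The TCDD label was checked with cyp1a, the classical target of the aryl hydrocarbon receptor, whose lowest value in the 8 TCDD libraries was 856 CPM and whose highest value in the 8 control libraries was 5.32 CPM. On the first principal component of log2 CPM, which held 29.8% of the variance, 4 libraries stood apart with scores of 32.71 to 56.19, against at most 18.06 in the others. These were slincRosu3 control 4, WT TCDD 3, WT TCDD 4 and WT control 4, where the number is the replicate, and results that rest on them are given with and without them. Without them, the TCDD comparison in WT sets only WT TCDD 1 and 2 against WT control 1, 2 and 3. Nothing in the labels says that replicates came from separate clutches, so p-values measure only the spread between these samples. In whole embryos, fewer cells of a type and less RNA per cell cannot be told apart.

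With TCDD, 0 of the 10 retinoid genes passed an adjusted p of 0.05 by edgeR's main fit in either line. In WT, crabp1b was called by DESeq2, and by edgeR with the replicate number as a block, but under no other alternative. The main test was the quasi-likelihood F test of edgeR, with p-values adjusted by Benjamini and Hochberg's method over 20907 genes. By it 0 of 10 were called for TCDD against control in slincRosu3, where 0.383% of all genes tested were called, and 0 of 10 in WT, where 0.325% were called. At an unadjusted p under 0.05, 1 of 10 differed in slincRosu3 (aldh1a2, lower), against 4.86% of all genes, and 5 of 10 in WT, against 8.02% of all genes. Those 5 were crabp1b, cyp26a1, cyp26c1 and dhrs3b, all lower with TCDD, and rbp4, higher with TCDD. DESeq2's Wald test called 0 of 10 in slincRosu3, where it called 0.725% of all genes, and 1 of 10 in WT, crabp1b, where it called 0.673%.

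**Figure D1:**
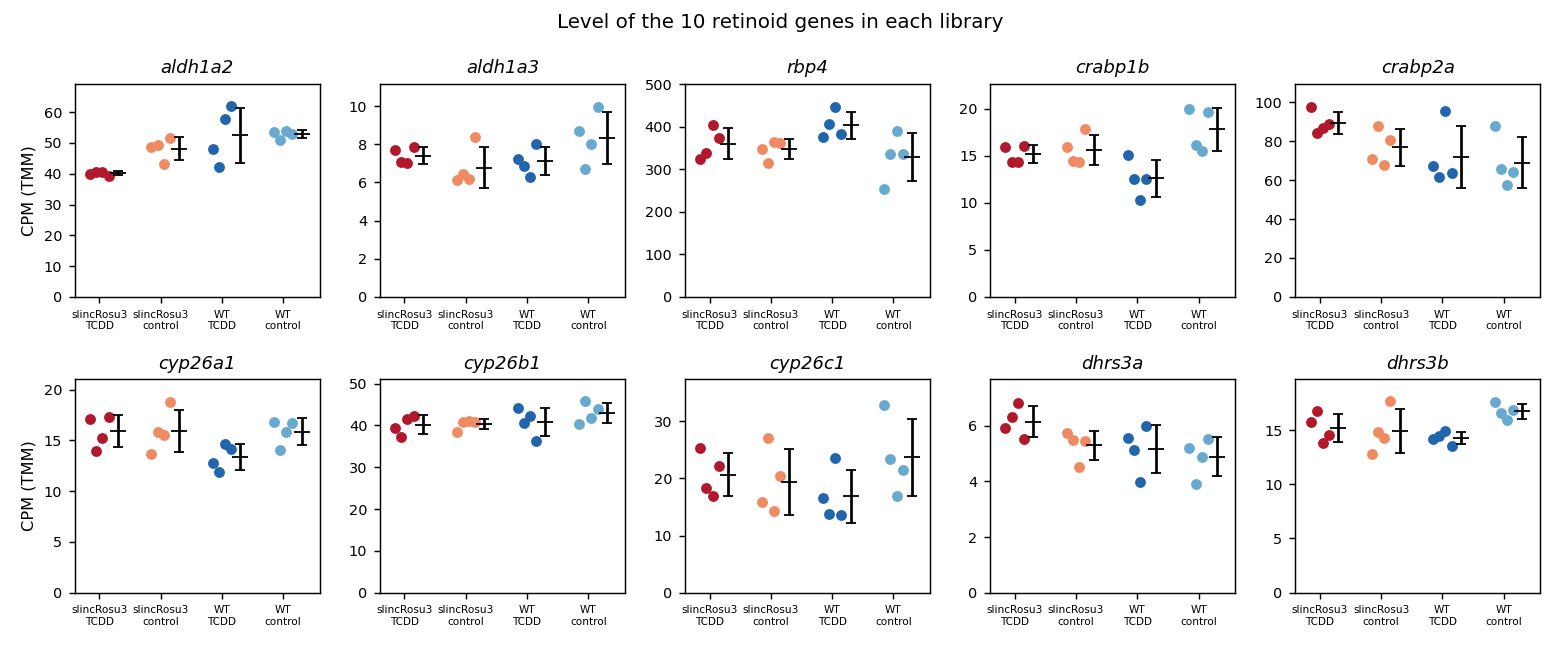
CPM (TMM-scaled, linear axis from 0) of the 10 genes in each of the 16 libraries. Points are libraries, in replicate order, and the bar beside each group is the mean ± SD (n = 4). The slincRosu3 TCDD libraries lie between 39.4 and 40.7 CPM for aldh1a2, below all other libraries, and the WT TCDD libraries lie below all WT control libraries for crabp1b and dhrs3b.

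Supply of retinol is represented by its carrier. rbp4 (ENSDARG00000101199), made by the yolk syncytial layer and liver, was at 323, 338, 404 and 374 CPM in the slincRosu3 TCDD libraries, against 349, 315, 364 and 363 CPM in the slincRosu3 control libraries. In WT, rbp4 was at 377, 407, 446 and 383 CPM with TCDD, against 255, 337, 391 and 336 CPM in control. The WT groups overlapped only through WT control 3, and WT control 1 was the lowest of all 16 libraries. The log2 fold change of rbp4 was 0.05 ± 0.12 (SE, n = 4 each) in slincRosu3 and 0.29 ± 0.12 in WT. The WT value had an edgeR adjusted p of 0.538, and without WT control 1 rbp4 was at 0.19 in WT. WT control 1 also had the lowest summed level of 9 liver and yolk layer markers, 4872 CPM, against 8807 to 11365 CPM in the WT TCDD libraries. In WT control 2, 3 and 4 the sums were 9345, 9464 and 13508 CPM, where rbp4 was at 337, 391 and 336 CPM. Most of the sum of the 9 markers came from apoa1a, apoa1b and apoa2, which averaged 3262, 2951 and 1917 CPM in WT control. Of those markers, 0 of 9 passed the threshold in WT, and the liver gene fabp10a averaged 0.71 CPM in slincRosu3 TCDD, 1.01 CPM in slincRosu3 control, 1.59 CPM in WT TCDD and 0.94 CPM in WT control, while ttr did not pass the filter on low counts. The part of this marker level in the rbp4 value was not tested.

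Synthesis was represented by 2 retinaldehyde dehydrogenases. aldh1a2 (ENSDARG00000053493), the main retinoic acid source of the early trunk, was at 39.8, 40.5, 40.7 and 39.4 CPM in the slincRosu3 TCDD libraries, against 48.6, 49.5, 43.1 and 51.6 CPM in the slincRosu3 control libraries. In WT, aldh1a2 was at 48.1, 42.1, 57.8 and 61.8 CPM with TCDD, against 53.5, 51.1, 53.9 and 52.8 CPM in control. The slincRosu3 groups did not overlap, whereas the WT TCDD libraries lay on both sides of the WT control libraries. The 2 highest WT TCDD libraries, WT TCDD 3 and WT TCDD 4, were among the 4 that stood apart.

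aldh1a2 differed with TCDD by a log2 fold change of -0.26 ± 0.10 (SE, n = 4 each) in slincRosu3, a difference of -16.7% with a 95% interval of -28.3% to -3.37%. Its edgeR adjusted p was 0.749. In WT the log2 fold change of aldh1a2 was -0.01 ± 0.10, with an interval of -14.3% to 15.2%. Without the 4 libraries that stood apart, aldh1a2 was at a log2 fold change of -0.23 in slincRosu3 and -0.22 in WT, with edgeR adjusted p of 0.200 and 0.190. The difference of the TCDD effects of aldh1a2 between the lines, slincRosu3 minus WT, was -0.25 ± 0.14 with all libraries and -0.01 without those 4. Without those 4, the WT TCDD group rests on WT TCDD 1 and WT TCDD 2, its lowest libraries for aldh1a2, at 48.1 and 42.1 CPM.

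aldh1a3 (ENSDARG00000076933), the retinoic acid source of the ventral retina, ran from 7.04 to 7.86 CPM in slincRosu3 TCDD libraries and from 6.12 to 8.39 CPM in slincRosu3 control libraries. In WT, aldh1a3 ran from 6.28 to 8.03 CPM with TCDD and from 6.69 to 9.96 CPM in control. The groups overlapped in both lines, and the log2 fold change was 0.13 ± 0.14 in slincRosu3 and -0.23 ± 0.14 in WT. The WT value had an edgeR adjusted p of 0.729. Without slincRosu3 control 4, the slincRosu3 value of aldh1a3 was 0.25, while it was 0.08 without slincRosu3 control 1 and 0.09 without slincRosu3 control 3. Without WT control 4, the WT value of aldh1a3 was -0.14.

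Of the reductases that turn retinaldehyde back into retinol, dhrs3b (ENSDARG00000044803) had WT groups that did not overlap. It was at 14.2, 14.5, 14.9 and 13.5 CPM in the WT TCDD libraries, against 17.6, 16.6, 15.9 and 16.9 CPM in the WT control libraries. Its log2 fold change in WT was -0.23 ± 0.10 with an edgeR adjusted p of 0.603. In slincRosu3, dhrs3b was at 15.8, 16.7, 13.8 and 14.6 CPM with TCDD and at 12.8, 14.8, 14.3 and 17.6 CPM in control. Those groups overlapped, and the log2 fold change was 0.03 ± 0.10. Its paralog dhrs3a (ENSDARG00000044982), which is induced by retinoic acid in zebrafish, averaged 6.15 ± 0.56 CPM (SD, n = 4) in slincRosu3 TCDD libraries and 5.29 ± 0.53 CPM (SD, n = 4) in slincRosu3 control libraries. In WT, dhrs3a averaged 5.16 ± 0.87 CPM with TCDD and 4.89 ± 0.70 CPM in control. The groups overlapped in both lines, and neither difference passed the test, with log2 fold changes of 0.22 ± 0.15 in slincRosu3 and 0.08 ± 0.15 in WT. Leaving out single libraries moved the WT value of dhrs3a between -0.01 (without WT control 2) and 0.19 (without WT TCDD 3).

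The retinoic acid binding proteins held the member with the smallest p of the TCDD comparisons. crabp1b (ENSDARG00000035904), a cytosolic retinoic acid binding protein, was at 15.9, 14.3, 14.3 and 16 CPM in the slincRosu3 TCDD libraries, against 15.9, 14.5, 14.3 and 17.8 CPM in the slincRosu3 control libraries. In WT, crabp1b was at 15.04, 12.6, 10.3 and 12.5 CPM with TCDD, against 19.97, 16.1, 15.5 and 19.6 CPM in control. All 4 WT TCDD libraries lay below all 4 WT control libraries, while the slincRosu3 groups covered nearly the same range. Each count is the sum over 2 read files of a sample. In raw crabp1b counts, read file 1 held 76 to 125 in WT TCDD against 157 to 167 in WT control. Read file 2 held 115 to 153 against 141 to 189, so those groups overlapped there. How this bears on the WT difference was not tested. The share of all tested genes whose groups did not overlap was 4.72% in slincRosu3 and 3.05% in WT. For the retinoid genes the count was 1 of 10 in slincRosu3, aldh1a2, and 2 of 10 in WT, crabp1b and dhrs3b.

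The log2 fold change of crabp1b in WT was -0.50 ± 0.13 (SE, n = 4 each), a difference of -29.1% with a 95% interval of -40.9% to -14.9%. Its unadjusted p by edgeR was 0.00097 and its adjusted p was 0.156. DESeq2's Wald test gave crabp1b -0.50 with an adjusted p of 0.0258, and the authors' deposited table holds the same pair of values, -0.50 and 0.0258. Without the 4 libraries that stood apart, crabp1b was at -0.31 with an edgeR adjusted p of 0.212. Over all alternatives, by edgeR or DESeq2, crabp1b in WT ran from -0.59 to -0.31, with adjusted p of 0.0258 to 0.712. In slincRosu3 the log2 fold change of crabp1b was -0.05 ± 0.12, with an interval of -19.2% to 16.3%. The difference of the TCDD effects of crabp1b, slincRosu3 minus WT, was 0.45 ± 0.18, with an unadjusted p of 0.0204 and an adjusted p of 0.996 by edgeR.

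crabp2a (ENSDARG00000073978), a retinoic acid binding protein whose gene responds to retinoic acid in zebrafish, was at 97.6, 84.4, 86.9 and 88.7 CPM in the slincRosu3 TCDD libraries. It was at 70.9, 88.0, 67.6 and 80.9 CPM in the slincRosu3 control libraries. In WT it was at 67.5, 61.5, 95.7 and 63.8 CPM with TCDD, against 88.1, 65.8, 57.6 and 64.3 CPM in control. In each WT group a lone library was high, WT TCDD 3 and WT control 1. The log2 fold change of crabp2a was 0.22 ± 0.15 in slincRosu3 and 0.06 ± 0.15 in WT, and neither passed the test. The WT value of crabp2a was -0.10 without WT TCDD 3, -0.01 without WT control 3 and 0.21 without WT control 1.

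Clearance is carried by 3 retinoic acid hydroxylases of the Cyp26 family. cyp26a1 (ENSDARG00000033999), the most retinoic acid inducible of them in many vertebrates, was at 17.1, 14.0, 15.2 and 17.3 CPM in the slincRosu3 TCDD libraries, against 13.7, 15.8, 15.5 and 18.7 CPM in the slincRosu3 control libraries. In WT, cyp26a1 was at 12.7, 11.8, 14.6 and 14.1 CPM with TCDD, against 16.8, 14.0, 15.8 and 16.7 CPM in control. The slincRosu3 groups overlapped over most of their range, and the WT groups overlapped through WT control 2. The log2 fold change of cyp26a1 was -0.00093 ± 0.12 in slincRosu3, with an interval of -15.6% to 18.3%, and -0.25 ± 0.12 in WT, with an edgeR adjusted p of 0.614.

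cyp26c1 (ENSDARG00000056029), which acts in the hindbrain, varied most between libraries of the same group. It was at 25.3, 18.3, 16.9 and 22.2 CPM in the slincRosu3 TCDD libraries, against 15.8, 27.1, 14.3 and 20.4 CPM in the slincRosu3 control libraries. In WT it was at 16.5, 13.9, 23.6 and 13.6 CPM with TCDD, against 32.9, 23.4, 17.01 and 21.5 CPM in control. The groups overlapped in both lines, and the SD of the 4 libraries was 18.4% to 29.6% of the group mean. The log2 fold change of cyp26c1 was 0.09 ± 0.23 in slincRosu3 and -0.49 ± 0.23 in WT, with an edgeR adjusted p of 0.617 in WT. Without WT control 1, its highest library, the WT value of cyp26c1 was -0.29. Over all 10 genes and 4 groups, the SD was 1.56% to 29.6% of the mean, with a median of 10.1%.

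cyp26b1 (ENSDARG00000077121), which acts in the hindbrain, skeleton and craniofacial cartilage, had like means in all groups. It averaged 40.2 ± 2.3 CPM in slincRosu3 TCDD libraries and 40.4 ± 1.2 CPM in slincRosu3 control libraries (SD, n = 4 each). In WT it averaged 40.9 ± 3.4 CPM with TCDD and 43.0 ± 2.5 CPM in control. The 95% intervals of the TCDD difference were -11.5% to 11.8% in slincRosu3 and -15.4% to 6.78% in WT.

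**Figure D2:**
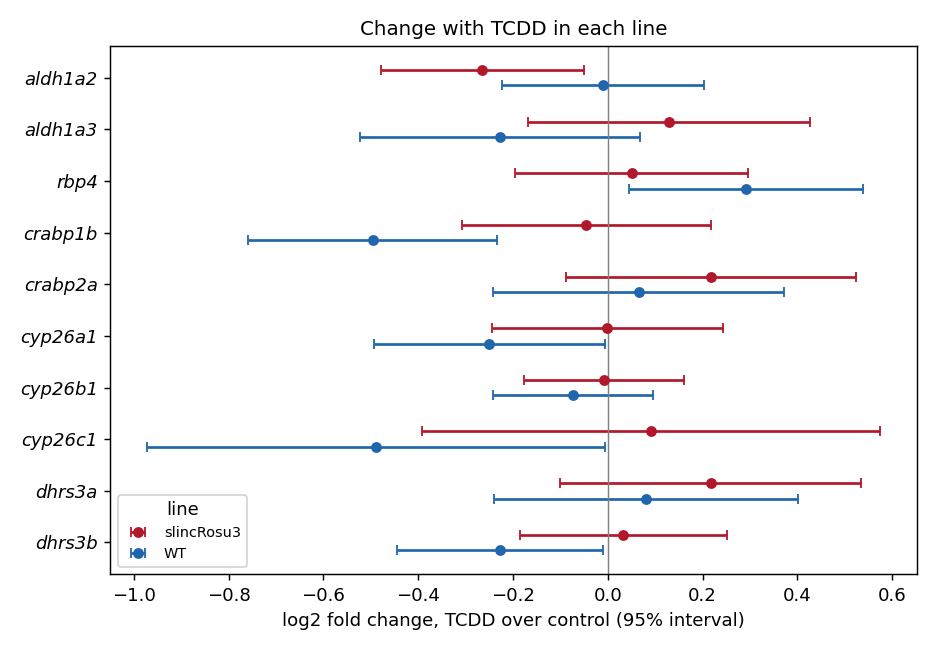
Log2 fold change of TCDD over control for each of the 10 genes in slincRosu3 and in WT, with 95% intervals from edgeR's fit over 16 libraries. The WT interval of crabp1b, -0.76 to -0.23, lies farthest from 0, and its slincRosu3 interval, -0.31 to 0.22, includes 0.

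The genes of synthesis, binding and clearance lay on both sides of 0 in each line. In slincRosu3, 6 of 10 log2 fold changes were above 0 and 4 below, with a median of 0.04, beside -0.01 over all genes tested. Of those 10 signs, 6 turned under at least 1 of the alternatives (crabp1b, cyp26a1, cyp26b1, cyp26c1, dhrs3b and rbp4), cyp26a1 also with DESeq2 size factors, at 0.0034. In WT, 3 were above 0 (rbp4, dhrs3a and crabp2a) and 7 below, with a median of -0.15, beside 0.01 over all genes. Within WT the 3 Cyp26 genes, both Aldh1a genes and crabp1b were all below 0, from -0.50 to -0.01, while crabp2a was at 0.06, and aldh1a2 was above 0 without WT TCDD 1 or WT TCDD 2, at 0.03 and 0.08. In WT the signs of 3 of 10 turned under at least 1 alternative (aldh1a2, crabp2a and dhrs3a). For the average of both lines, 0 of 10 were called by edgeR, against 0.804% of all genes, and 1 of 10, crabp1b, had an unadjusted p under 0.05, against 7.72% of all genes. Its averaged log2 fold change was -0.27 ± 0.09 with an adjusted p of 0.287, and -0.15 without the 4 libraries that stood apart, and DESeq2 also called 0 of 10, against 1.25% of all genes. The TCDD effects differed between the lines for 0 of 10 genes by edgeR and by DESeq2, and each of the tools called 0 of all genes in that comparison. At an unadjusted p under 0.05 the count was 1 of 10, crabp1b, against 4.3% of all genes. The difference, slincRosu3 minus WT, was above 0 for 8 of the 10. With the 4 libraries that stood apart left out, edgeR called 0 of 10 in each of the 6 comparisons. For TCDD in slincRosu3, 0.796% of all genes were then called, and 1 of 10 had an unadjusted p under 0.05, against 14% of all genes. In WT 1.53% were called, and 4 of 10 had an unadjusted p under 0.05, against 20% of all genes. For the average 2.27% were called, with 1 of 10 against 18% at the unadjusted p, and for the difference of TCDD effects 0.0936%, with 3 of 10 against 16.8%. Between the lines 2.83% were called in control, with 2 of 10 against 19.7%, and 3.26% in the TCDD-exposed embryos, with 2 of 10 against 18.7%.

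Between the lines, no retinoid gene passed the adjusted threshold in control embryos. For slincRosu3 control against WT control, 0 of 10 were called by edgeR, against 1.54% of all genes, and 0 of 10 by DESeq2, against 2.05%. At an unadjusted p under 0.05 the count was 1 of 10, against 11% of all genes. That gene was aldh1a3, at 6.78 ± 1.08 CPM in slincRosu3 control and 8.34 ± 1.36 CPM in WT control (SD, n = 4 each), with a log2 fold change of -0.30 ± 0.14 and an adjusted p of 0.449. No gene of the 10 had groups that did not overlap, against 6.27% of all genes. Of the 10 log2 fold changes, 4 were above 0 and 6 below. The difference was -18.6% for aldh1a3, with an interval of -33.7% to -0.06%, and -18.1% for cyp26c1, with -41.3% to 14.4%. For crabp2a it was 11.4%, with an interval of -9.9% to 37.8%. With intervals this wide, the tests do not show that levels were alike in the lines. These line comparisons share libraries with the TCDD comparisons above.

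With TCDD in both lines, aldh1a2 separated the lines most. For slincRosu3 TCDD against WT TCDD, edgeR called 0 of 10, against 1.86% of all genes, and 3 of 10 had an unadjusted p under 0.05, against 14.3% of all genes. These were aldh1a2, lower in slincRosu3, and crabp2a and cyp26a1, higher in slincRosu3. DESeq2 called 1 of 10, aldh1a2, against 2.82% of all genes. aldh1a2 averaged 40.1 ± 0.6 CPM in slincRosu3 TCDD and 52.5 ± 9.0 CPM in WT TCDD (SD, n = 4 each), and its groups did not overlap, as was the case for 10.3% of all genes. The SD was thus far smaller in the slincRosu3 TCDD libraries.

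The log2 fold change of aldh1a2 between the lines with TCDD was -0.39 ± 0.10, a difference of -23.6% with a 95% interval of -34.1% to -11.3%, and its edgeR adjusted p was 0.0615. DESeq2's Wald test gave aldh1a2 an adjusted p of 0.0240, as does the authors' deposited table. For slincRosu3 TCDD against WT control, the authors' deposited table holds -0.40 for aldh1a2 with an adjusted p of 0.0124. Without WT TCDD 2, the lowest WT TCDD library, edgeR gave aldh1a2 -0.48 with an adjusted p of 0.0154. Without the 4 libraries that stood apart it gave aldh1a2 -0.18 with an adjusted p of 0.281. The summed level of 6 skeletal muscle and somite markers ran from 19750 to 22800 CPM in slincRosu3 TCDD and from 17952 to 23876 CPM in WT TCDD, and 0 of the 6 passed the threshold between those groups. Nearly all of that sum came from mylpfa, tnnt3b, ckma and acta1b, which averaged 5760, 2890, 6267 and 5621 CPM in WT TCDD. There myod1 and myog averaged 14.4 and 16.4 CPM, and in slincRosu3 TCDD they averaged 15.7 and 14.7 CPM.

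crabp2a averaged 89.4 ± 5.7 CPM in slincRosu3 TCDD and 72.1 ± 15.9 CPM in WT TCDD (SD, n = 4 each). Its log2 fold change of 0.31 ± 0.15 had an edgeR adjusted p of 0.344, and without WT TCDD 3 crabp2a was at 0.48 with an adjusted p of 0.0873. cyp26a1 averaged 15.9 ± 1.6 CPM in slincRosu3 TCDD and 13.3 ± 1.3 CPM in WT TCDD. Its log2 fold change was 0.26 ± 0.12 with an adjusted p of 0.323. The mean of cyp26a1 was 15.9 CPM in both slincRosu3 groups and 15.8 CPM in WT control, so WT TCDD was the lowest of the groups, though no neighbouring pair in that order passed the adjusted test.

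Among libraries of the same group, cyp26c1 and crabp2a varied together. Deviations of log2 CPM from the group mean were correlated over the 16 libraries for each of the 45 pairs of the 10 genes, and p-values came from permutations within groups, adjusted over the 45 pairs. For cyp26c1 and crabp2a, Pearson's r was 0.93 (permutation p = 4e-05, adjusted 0.0018) and Spearman's rho was 0.91 (permutation p = 0.00012, adjusted 0.0054). Leaving out the 2 libraries farthest from the median of cyp26c1 gave r = 0.93. Both genes were highest of their group in the same library in all 4 groups: slincRosu3 TCDD 1, slincRosu3 control 2, WT TCDD 3 and WT control 1. With the 4 libraries that stood apart left out, r was 0.94 over 12 libraries with an adjusted permutation p of 0.0558. Fewer permutations within groups exist for those 12 libraries, and the part of this in the adjusted p was not tested. Both genes share each library's scaling and RNA.

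**Figure D3:**
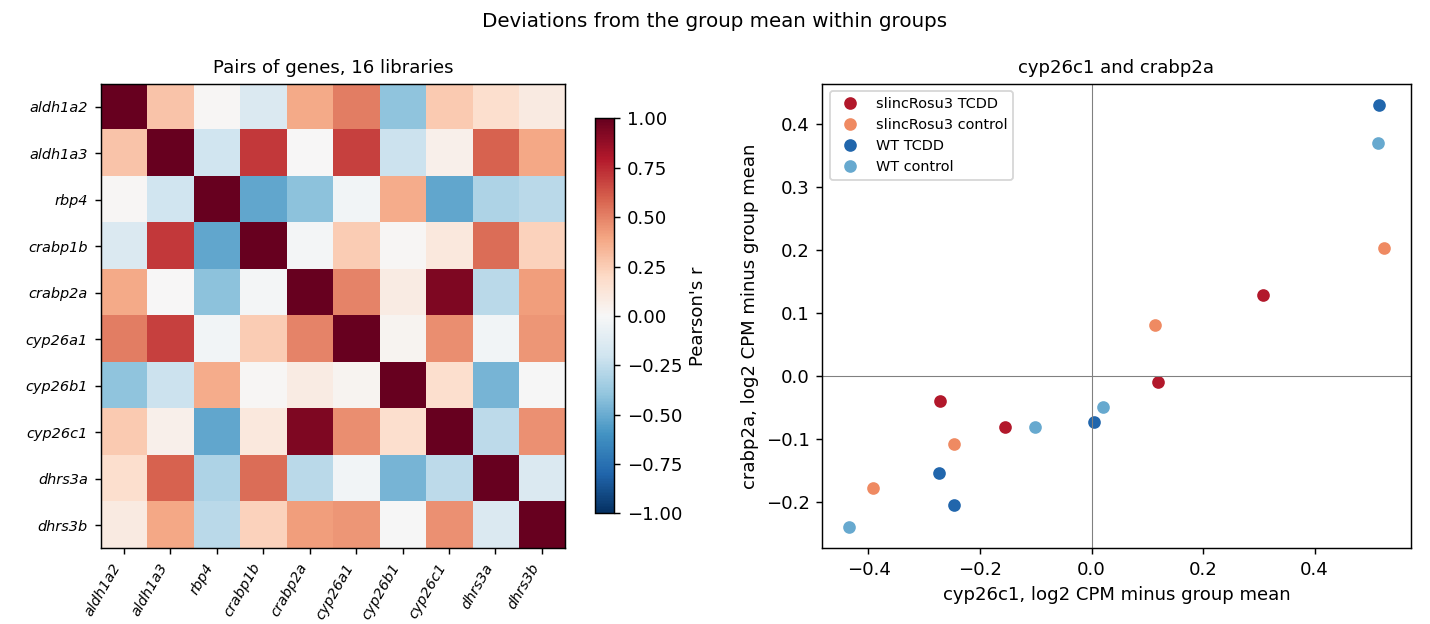
Left, Pearson's r of the deviations of log2 CPM from the group mean for each pair of the 10 genes over 16 libraries. Right, the deviations of crabp2a against those of cyp26c1, 1 point per library, where r is 0.93.

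The other pairs of retinoid genes did not pass the adjusted threshold. The 45 values of r ran from -0.52 to 0.93 with a median of 0.085, 28 were positive, and 4 pairs had an unadjusted permutation p under 0.05. The next strongest were aldh1a3 with crabp1b, at r = 0.71 and rho = 0.74, and aldh1a3 with cyp26a1, at r = 0.68 and rho = 0.57. Each had an adjusted permutation p of 0.192 for r. Between the main source and the sinks, aldh1a2 had r = 0.51 with cyp26a1, -0.40 with cyp26b1 and 0.26 with cyp26c1, with adjusted permutation p of 0.362, 0.724 and 0.730. Without the 4 libraries that stood apart, the r of aldh1a2 with cyp26a1 was 0.062.

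Other genes of the retinoid pathway were read from a list of 84 symbols, of which 78 matched the table and 71 genes were tested. In slincRosu3, 2 rose with TCDD and 0 fell by edgeR at an adjusted p of 0.05, in WT 0 rose and 0 fell, and for the average of both lines 1 rose and 0 fell. The shares of all genes called in these comparisons were 0.383%, 0.325% and 0.804%. The 2 genes that rose in slincRosu3 were bco1 and rdh8b. DESeq2 called 3 in slincRosu3, 0 in WT and 3 for the average, against 0.725%, 0.673% and 1.25% of all genes.

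bco1 (ENSDARG00000104256), the enzyme that cleaves beta-carotene into retinaldehyde, was at 26.5, 22.4, 22.2 and 24.7 CPM in the slincRosu3 TCDD libraries, against 14.4, 16.8, 13.1 and 18.3 CPM in the slincRosu3 control libraries. In WT, bco1 was at 18.6, 18.1, 19.8 and 19.6 CPM with TCDD, against 17.9, 20.7, 17.7 and 20.2 CPM in control. The slincRosu3 groups did not overlap, and the WT libraries, at 17.7 to 20.7 CPM, all lay below the slincRosu3 TCDD libraries. bco1 rose in slincRosu3 by 0.61 ± 0.11 on the log2 scale (SE, n = 4 each), or 1.53-fold, with an edgeR adjusted p of 0.0117. In WT its log2 fold change was -0.01 ± 0.11. The difference of effects, slincRosu3 minus WT, was 0.62 ± 0.15 with an unadjusted p of 0.000786 and an adjusted p of 0.996, so a difference between the lines was not called. The call of bco1 in slincRosu3 was lost when slincRosu3 TCDD 1, slincRosu3 control 1 or slincRosu3 control 3 was left out, with adjusted p of 0.0648, 0.0651 and 0.0543 and log2 fold changes of 0.56, 0.58 and 0.54.

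rdh8b (ENSDARG00000105060), a gene of the retinol dehydrogenase family, was at 7.46, 6.34, 5.09 and 5.09 CPM in the slincRosu3 TCDD libraries, against 3.19, 2.08, 3.63 and 2.66 CPM in the slincRosu3 control libraries. In WT, rdh8b was at 5.25, 5.22, 6.55 and 6.51 CPM with TCDD, against 3.81, 4.08, 4.11 and 5.16 CPM in control. TCDD libraries lay above control libraries in each line. rdh8b rose 2.07-fold in slincRosu3, by 1.05 ± 0.19 on the log2 scale with an edgeR adjusted p of 0.0117, and 1.68-fold for the average of both lines, with an adjusted p of 0.0052. In WT alone its log2 fold change was 0.46 ± 0.18 with an adjusted p of 0.534. The call of rdh8b in slincRosu3 was lost without slincRosu3 TCDD 1 (log2 fold change 0.93, adjusted p 0.0639), without slincRosu3 control 2 (0.92, 0.0537) and in a fit of the slincRosu3 groups alone (1.05, 0.0607). For the average of both lines, rdh8b kept an adjusted p under 0.05 without each single library.

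**Figure D4:**
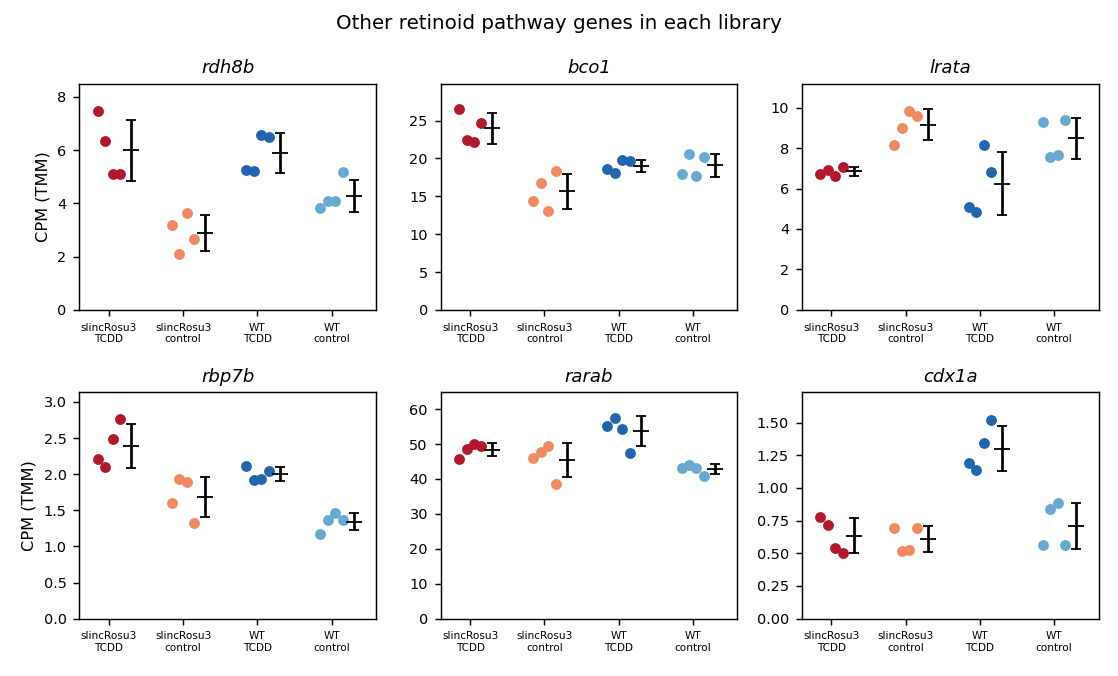
CPM (TMM-scaled, linear axis from 0) of rdh8b, bco1, lrata, rbp7b, rarab and cdx1a in each of the 16 libraries, with mean ± SD per group (n = 4). TCDD libraries lie above control libraries for rdh8b in each line, and for bco1 in slincRosu3 alone.

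Storage, uptake and receptor genes held no further call for TCDD by edgeR with all libraries. lrata, which esterifies retinol for storage, averaged 6.85 ± 0.21 CPM in slincRosu3 TCDD and 9.15 ± 0.76 CPM (SD, n = 4) in slincRosu3 control. In WT it averaged 6.23 ± 1.56 CPM with TCDD and 8.48 ± 1.01 CPM in control. Its averaged log2 fold change was -0.43 ± 0.11 with an edgeR adjusted p of 0.0852, and without the 4 libraries that stood apart lrata was at -0.55 with an adjusted p of 0.0038. Without WT TCDD 3 alone, lrata was at -0.51 with an edgeR adjusted p of 0.0155, and DESeq2's Wald test with all libraries gave lrata an adjusted p of 0.0173. Over all alternatives, by edgeR or DESeq2, the averaged adjusted p of lrata ran from 0.0038 to 0.191. rbp7b, of the cellular retinol-binding proteins, had an averaged log2 fold change of 0.54 with an adjusted p of 0.0531. Of the retinoic acid receptors and their partners, 0 of 8 passed the threshold. rarab was at 55.3, 57.5, 54.2 and 47.5 CPM in WT TCDD and at 43.2, 44.1, 43.2 and 40.9 CPM in WT control, with a WT log2 fold change of 0.32 ± 0.09 and an adjusted p of 0.199. With those 4 left out, rarab was at 0.38 in WT with an edgeR adjusted p of 0.0237, where 1.53% of all genes were called. Over all alternatives, by edgeR or DESeq2, the adjusted p of rarab in WT ran from 0.0237 to 0.860.

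The remaining genes named from the list had averaged log2 fold changes that did not pass the threshold with all libraries. Among the receptors, raraa was at 0.14, and at 0.29 with an edgeR adjusted p of 0.0480 without the 4 libraries that stood apart. In that setting 2.27% of all genes were called, and over all alternatives raraa ran from 0.09 to 0.29. bco2a, which cleaves carotenoids at an asymmetric site, was at 0.31. In the visual cycle, rlbp1b, a retinaldehyde-binding protein of the eye, was at -0.33, the isomerase gene rpe65c at -0.17, and rdh5, an 11-cis-retinol dehydrogenase in mammals, at -0.21. The binding protein paralogs crabp1a and crabp2b were at -0.16 and 0.02 (-0.0065 and -0.03 without the 4 libraries that stood apart), and the corepressor genes nrip1a and nrip1b were both at 0.09. hoxd4a, a Hox gene of the hindbrain and spinal cord, was at 0.26.

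Of 20 genes known to respond to retinoic acid, 0 were called for TCDD in slincRosu3 or in WT by edgeR. All genes tested were called at 0.383% in slincRosu3 and 0.325% in WT. The count at an unadjusted p under 0.05 was 1 of 20 in each line, beside 4.86% of all genes in slincRosu3 and 8.02% in WT. For the average of both lines edgeR called 0 of 20, against 0.804% of all genes. At an unadjusted p under 0.05 that average had 3 of 20, all higher with TCDD, against 7.72% of all genes. Log2 fold changes were above 0 for 16 of 20 in slincRosu3, 10 in WT and 14 for the average. Between the lines with TCDD, where 1.86% of all genes were called, 1 of the 20 was called, cdx1a, a homeobox gene of the posterior body. cdx1a was at 0.78, 0.72, 0.54 and 0.50 CPM in slincRosu3 TCDD, against 1.19, 1.14, 1.34 and 1.52 CPM in WT TCDD. In control embryos it averaged 0.61 ± 0.10 CPM in slincRosu3 and 0.71 ± 0.17 CPM in WT (SD, n = 4 each). Its log2 fold change between the lines with TCDD was -1.03 ± 0.24, with an edgeR adjusted p of 0.0352. The call of cdx1a was lost when any 1 of the 8 libraries compared was left out, with adjusted p of 0.0506 to 0.131, and with DESeq2, at 0.0756.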

How the data were processed

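Whole-embryo RNA of 24 samples was sequenced, per the labels, and 16 libraries were analysed. HISAT2, STAR, DESeq2 and the build GRCz11 are named in the submitters' processing notes. Their versions, how reads were counted, on which annotation and on which strand are details not given in the sources used here. Raw counts per gene were deposited by the authors, each the sum over 2 read files of a sample, after genes of 0 or few counts had been dropped, per the file headers and the table's name. If the 2 read files are mates, a fragment may be counted in each. In 1 column, estimated counts by the form of the deposited values, 1 value was not whole and was rounded. Columns named slincR were taken as slincRosu3, the only line label containing that word. Another 48 columns under a name no label explains were not used, nor was a first sheet of counts in which 16 of 16 WT columns differed from the same-named column of the sheet of sums. In the 8 WT libraries, 2 read files per sample summed to the main table. The ratio of read file 1 to read file 2 had a median over those libraries of 0.861 for crabp1b and 1.19 for dhrs3a. It lay near 1 for the other 8 genes. For crabp1b the ratio was 0.884, 1.17, 1.11 and 1.06 in the WT control libraries, against 0.817, 0.787, 0.661 and 0.838 with TCDD. Read file 1 held 167, 166, 157 and 162 crabp1b counts in WT control, and 125, 107, 76 and 109 with TCDD. Read file 2 held 189, 142, 141 and 153 in WT control, and 153, 136, 115 and 130 with TCDD. How this bears on the WT difference of crabp1b was not tested. The authors' log2 fold changes with their adjusted p-values were deposited too, per the file headers.

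Genes were tested two-sided in R 4.3.3 with the quasi-likelihood F test of edgeR 4.0.16, after TMM scaling and a filter with filterByExpr by group that kept 20907 genes. The 16 libraries were fitted together (12 residual degrees of freedom), with Benjamini-Hochberg adjustment over all genes at 0.05 and 95% intervals. Alternatives were DESeq2 1.42.0 size factors and Wald test, no filter, a fit of only the groups compared, a replicate block, each library left out, and the 4 libraries that stand apart left out. Pairs of genes used 100000 permutations and log2 CPM, prior count 2. The scripts were tested on simulated data. The genes, the pathway list and the tests were chosen with earlier results of these data known. All 10 genes are named, with cyp1a, every pathway gene past the threshold, and the 2 smallest unadjusted p per sublist for the averaged TCDD effect. The counts of other pathway genes under each alternative were added after seeing the data. Gene levels were not compared with each other, since no gene lengths were at hand, and no coordinates or sequences are given, since no annotation of GRCz11 was at hand. How reads shared by paralogs or overlapping genes were counted was not given.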

Additional observations from a re-analysis of the deposited data

Results flagged for a closer look

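In 2 of the 40 sets of 4 libraries (10 genes in 4 groups), a lone library lay far from the other 3 for the spread of its set, by a gap over range above Dixon's 95% critical value, which chance gives in about 1 of 20 sets. cyp26b1 was at 38.6 CPM in slincRosu3 control 1, against 40.9 to 41.2 CPM in the others of that group. aldh1a3 was at 8.39 CPM in slincRosu3 control 4, a library that stands apart on the first principal component, against 6.12 to 6.46 CPM in the others.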

How the results depend on the processing

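Over 6 comparisons, the 10 genes gave 60 log2 fold changes and 980 values under the alternatives; 962 kept their side of the threshold and moved by less than 1 SE, 14 moved further and 4 newly passed it, and 33 small values changed sign. The count of called retinoid genes moved in 2 comparisons. For TCDD in WT it was 0 by edgeR, 1 by DESeq2's Wald test (crabp1b, adjusted p 0.0258) and 1 with the replicate block (crabp1b, adjusted p 0.0343), and 0 without each single library. For slincRosu3 TCDD against WT TCDD it was 0 by edgeR, 1 by the Wald test (aldh1a2), and 0 to 1 without single libraries (1 without WT TCDD 2). Same-numbered libraries of different groups correlated above 0.1 in 16 of 24 pairs, from -0.28 to 0.68. Without pairing, each of the 4 libraries of another group would correlate best equally often on average. In 27 of 48 combinations of a library and another group, the same number correlated best. This is a hint at pairing from the data. The labels state none, so the main fit did not take the numbers as pairing. Of the same-numbered pairs, 8 were not above 0.1. The replicate block called crabp1b in WT, as given above, and left all other counts of retinoid genes at 0. Of the other pathway genes, 0 were called in WT, against 0.325% of all genes. Without the 4 libraries that stood apart 2 were called (rarab and lrata), against 1.53% of all genes. In slincRosu3, 2 were called, against 0.383% of all genes, 1 in a fit of only those groups (bco1) and 0 to 2 without single libraries. For the average of both lines 1 was called, against 0.804% of all genes, and 3 by the Wald test (lrata, bco1 and rdh8b), against 1.25%. For that average 6 were called without the 4 libraries, against 2.27% of all genes, and 1 to 2 without single libraries. For slincRosu3 TCDD against WT TCDD 1 was called (cdx1a), against 1.86% of all genes, and 0 by the Wald test, against 2.82%. The count was also 0 in a fit of only those groups, with the replicate block and without each single library. Without the 4 libraries the 1 gene called was hoxb1b, against 3.26% of all genes. Of the pairs of genes, 1 passed, and 0 without the 4 libraries, which leaves 12. For that pair, cyp26c1 and crabp2a, r was 0.93 with all libraries and 0.94 over the 12. Fewer permutations within groups exist for 12 libraries. The cause of these moves was not tested. A fit of only the groups compared was not run for the average and the difference of effects, which use all groups.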
